A study of Oryza sativa with 18 samples.

Results

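Procambial meristem of roots was compared directly with procambial meristem of shoot organs in an atlas of open chromatin from single nuclei of rice (Oryza sativa, genotype Nipponbare). The columns were chosen by name: 5 of the 128 cell states of the authors' table carry the label Procambial_meristem, 2 from roots and 3 from shoot organs. The root states come from seminal root, the primary root that emerges from the embryo, and from crown root, the roots that form on stem nodes. The shoot states come from axillary bud, the bud in a leaf axil from which a tiller grows, and from shoot tissue labelled early seedling and seedling. These 5 organs account for 10 of the 18 libraries, 2 per organ. All libraries share the genotype and were made from fresh, untreated tissue, and no age is given for any of them.

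Procambium is the meristematic tissue of the vascular system. Its cells divide and give rise to xylem, which carries water, and to phloem, which carries sugars. In a root it lies in the central stele behind the root tip, inside the pericycle and endodermis. In a shoot it forms separate strands below the apical meristem and in young leaves. Cells of both kinds thus share a role in organs that are built differently, and the comparison asks how far their open chromatin is shared. In the assay, a transposase cuts accessible DNA in sorted nuclei, and the fragments of a nucleus share a barcode. A region with a high value was cut often and is called open.

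The values are sequence counts scaled to a common total (CPM) per region and cell state, pooled by the authors over the libraries of an organ, so a column has no replicate and no SD. The organ was therefore the unit, with 2 root and 3 shoot organs, and p-values measure the spread between organs. The columns had also been brought to nearly 1 distribution, with the same highest value, 73.9 CPM, in all 5, so a value is not a plain count rate. Depth per column is not given. As a substitute, distinct values were counted, since shallow columns hold fewer: 485 in seminal root and 463 in crown root, against 409 in axillary bud, 69 in early seedling and 174 in seedling. Over all columns of the table its median was 402.5. The lowest value a column can take also differs, at 0.137 CPM in seminal root and 0.143 CPM in crown root, against 0.196 CPM in axillary bud, 0.484 CPM in early seedling and 0.385 CPM in seedling. In early seedling 7.34% of all regions sat at that lowest value, and in seedling 4.23%, so the true level of such regions may be lower than printed. Root and shoot thus differ in depth as well as in organ, and axillary bud is the shoot column closest to the roots. The label could not be checked against procambial marker genes, because nearby genes were not analysed here. No source used here names the genome build of the coordinates.

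The root columns resembled each other far more than any shoot columns did. Across the 128764 regions of the table, seminal root and crown root procambium correlated at a Pearson r of 0.977. The 6 root and shoot pairs averaged 0.771, and the 3 shoot pairs averaged 0.867. The highest r between root and shoot, 0.806 for crown root with axillary bud, was below the lowest r within the shoot, 0.852 for axillary bud with early seedling. Regions are not independent, columns of an organ share libraries, and shallow columns lower every r they enter, so these values carry no p.

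The size of the differences between columns followed the same order. Of the 127604 regions that reached 1 CPM in at least 1 of the 5 columns, 142 (0.111%) differed between seminal and crown root by more than 1 on the log2(CPM + 1) scale. Between crown root and axillary bud 22684 regions (17.8%) did, and between seminal root and early seedling 32334 (25.3%). Within the shoot, axillary bud and seedling differed in this way in 10482 regions (8.21%), and early seedling and seedling in 19087 (15.0%). Axillary bud, the deepest shoot column, stood apart from both roots in more regions than it did from the shallow early seedling column, which differed from it in 17786 (13.9%).

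**Figure D1:**
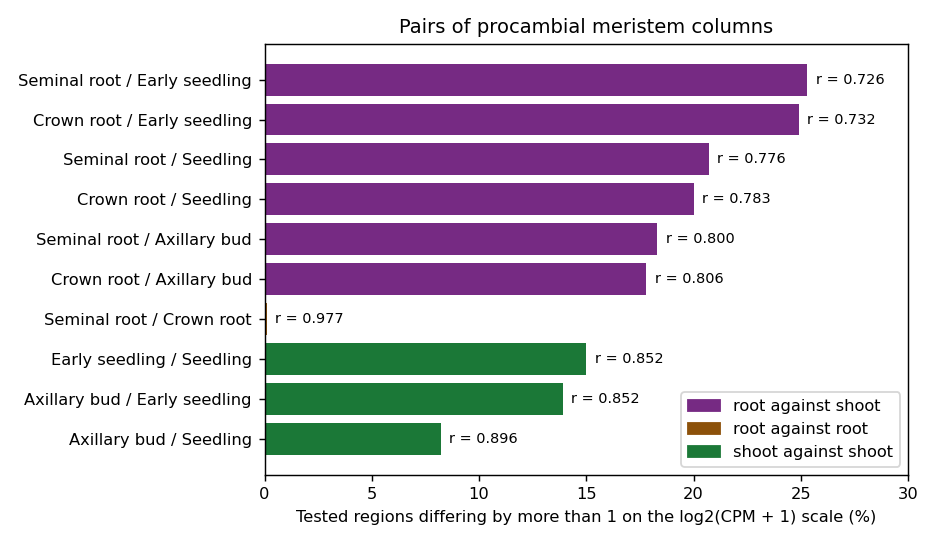
Share of tested regions that differ by more than 1 on the log2(CPM + 1) scale (horizontal axis, percent) for each of the 10 pairs of procambial columns, with the Pearson correlation r beside each bar. Root against shoot pairs lie between 17.8% and 25.3%, the root pair at 0.111%, and the shoot pairs between 8.21% and 15.0%.

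For the root procambium, shoot procambium was not among the closest states of the atlas. Among the 127 other columns, crown root procambium was closest to seminal root procambium. Next came Pericycle of crown root (r 0.939) and of seminal root (0.928), Stele_initials of seminal root (0.917) and Developing_metaxylem of seminal root (0.896) and crown root (0.889). The pericycle is the outermost layer of the stele and metaxylem is the later-formed water-conducting tissue. Axillary bud procambium was in place 34, seedling procambium in place 46 and early seedling procambium in place 78. For crown root the same 5 states led, and the shoot columns took places 32, 44 and 77.

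Shoot procambium was likewise closest to other shoot states. The columns most like axillary bud procambium were Vascular_cell (0.961), Phloem_parenchyma (0.948), Xylem_precursor (0.937), Companion_cell (0.934) and Phloem_precursor (0.931) of the same organ. Those most like seedling procambium were Phloem_precursor of axillary bud (0.927), SM of panicle (0.918), Vascular_cell (0.917) and Xylem_precursor (0.915) of axillary bud, and Phloem_precursor of early seedling (0.911). Early seedling procambium was closest to Bundle_sheath (0.884), Vascular_cell (0.882) and Xylem_precursor (0.876) of axillary bud, then to Phloem_precursor and Vascular_cell of its own organ (both 0.874). The root procambium columns stood at places 52 to 63 for these 3 shoot columns. Other shoot procambium columns did not lead either. For axillary bud, seedling procambium was in place 15 and early seedling procambium in place 35. For early seedling, seedling was in place 12 and axillary bud in place 13. For seedling, axillary bud was in place 10 and early seedling in place 27. The place of early seedling for axillary bud was thus near that of axillary bud for seminal root, 34.

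A test across all regions asked which of them differ between the organs beyond the spread within roots and within shoots. At an adjusted p below 0.05 (limma, Benjamini-Hochberg), 11128 of 127604 regions (8.72%) were higher in root procambium and 7610 (5.96%) were lower. The median difference of the higher regions was 1.49 on the log2(CPM + 1) scale, with median CPM of 12.7 in seminal root and 12.4 in crown root, against 3.32 in axillary bud, 2.88 in early seedling and 3.03 in seedling. For the lower regions it was -1.23, with median CPM of 3.67 in seminal root and 3.84 in crown root, against 10.8 in axillary bud, 11.9 in early seedling and 11.2 in seedling. Over all tested regions the median difference was -0.09. The root and shoot values did not overlap in any of the called regions, nor in 65379 of all 127604 tested regions. The calls were made on these same values, so the lack of overlap is no added support. Seminal and crown root differed by more than 1 in 6 of the higher and 6 of the lower regions.

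The counts rest on both roots. With seminal root left out, limma called 2400 regions (1386 higher, 1014 lower), and without crown root 3160 (1779 and 1381), the remaining root being assumed to vary like the shoots. Without early seedling, the shallowest column, it called 25262 (14302 and 10960). With early seedling and seedling averaged to 1 unit it called 29269 (16268 and 13001), and with organs of 1 tissue label averaged, which leaves 1 root unit, 5745 (3966 and 1779). Against axillary bud alone, 7908 of the 11128 higher regions (71.1%, against 8.62% of all tested regions) exceeded it by more than 1 in both roots, and 3811 of the 7610 lower regions (50.1%, against 5.46%) lay below it by more than 1. Axillary bud is part of the test that chose these regions, so these shares describe its part in them.

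By size alone, with no test, 12357 regions (9.68%) were higher and 7748 (6.07%) lower in root, with groups that did not overlap and a mean difference beyond 1. The split was 4512 and 1491 with a pseudocount of 5, 16672 and 14849 with a pseudocount of 0.1, and 17195 and 15710 on the deposited log2 values, so the share of higher regions depends on the scale. Over 4 equal bins of the mean level in the 5 columns, from low to high, limma called 3.53%, 10.4%, 12.6% and 8.35% of regions higher and 1.33%, 4.61%, 9.45% and 8.47% lower in root. Calls were thus fewest among the least open regions. Differences beyond 2 were found in 2126 higher and 444 lower regions. The strongest contrasts were also more often root-high: 203 regions had at least 10 CPM in both roots and under 2 CPM in each shoot column, and 27 had at least 10 CPM in each shoot column and under 2 CPM in both roots.

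**Figure D2:**
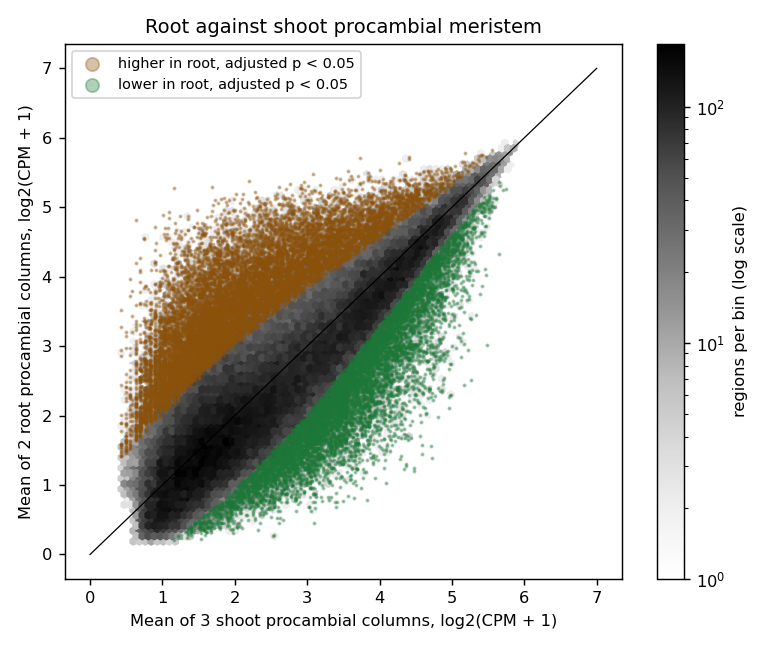
Each region by its mean over the 2 root columns (vertical axis) and the 3 shoot columns (horizontal axis), both in log2(CPM + 1), with the density of all tested regions in grey on a log scale. The 11128 regions called higher in root lie above the diagonal and the 7610 called lower in root below it.

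In the 12 regions with the largest positive differences, both root columns were open and no shoot column was above 3.03 CPM. The region on chromosome 4 from 26209936 to 26210436 had 28.4 CPM in seminal root and 25.9 CPM in crown root procambium, against 0.822 CPM in axillary bud, 0.484 CPM in early seedling and 0.385 CPM in seedling. Its difference of 4.18 ± 0.31 (SE) was the largest of the called regions (limma adjusted p = 0.00101). A region on chromosome 1, from 38407137 to 38407637, had 36.7 and 38.5 CPM in the roots, against 1.58, 0.484 and 1.94 CPM in axillary bud, early seedling and seedling, a difference of 4.11 ± 0.35. Both were high in both roots and below 2 CPM in each shoot column.

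The next in order were on chromosomes 5, 11 and 4. On chromosome 5, the bases from 1150055 to 1150555 had 30.4 and 26.9 CPM in seminal and crown root, against 0.348, 0.484 and 3.03 CPM in axillary bud, early seedling and seedling (3.89 ± 0.45). On chromosome 11, the bases from 19894970 to 19895470 had 29.4 and 29.5 CPM in the roots, against 0.822, 1.23 and 1.38 CPM in the shoot columns (3.84 ± 0.30). A pair of named regions lay 3346 bases apart on chromosome 4. The first, from 29840470 to 29840970, had 25.1 and 25.5 CPM in the roots against 0.822, 0.484 and 1.38 CPM in the shoot columns (3.82 ± 0.32). The second, from 29844317 to 29844817, had 23.0 and 21.7 CPM against 0.544, 1.23 and 0.385 CPM (3.79 ± 0.33). In each of these regions both root values were far above the highest shoot value.

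The remaining 6 of the 12 leading root-high regions had differences from 3.61 to 3.81. They lie on chromosome 6 from 4338914 to 4339414, chromosome 8 from 24374741 to 24375241, chromosome 4 from 19261934 to 19262434, chromosome 7 from 23961397 to 23961897, chromosome 3 from 27423319 to 27423819 and chromosome 5 from 6259761 to 6260261. Over the 12 regions root values ranged from 21.7 to 38.6 CPM and shoot values from 0.348 to 3.03 CPM. The adjusted p of limma was between 0.00101 and 0.00129. Early seedling was at its lowest possible value in 7 of the 12, seedling in 4 and axillary bud in 0, though axillary bud values in them went down to 0.348 CPM. The part of depth in these differences was not tested.

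The regions with the largest negative differences were less extreme. First among them, bases 1951050 to 1951550 of chromosome 11 had 1.32 CPM in seminal root and 1.95 CPM in crown root procambium, against 20.3 CPM in axillary bud, 28.3 CPM in early seedling and 28.4 CPM in seedling. Its difference was -3.33 ± 0.27 (limma adjusted p = 0.00101). Next was a region of chromosome 6, from 27061551 to 27062051, with 0.929 and 1.75 CPM in the roots, against 20.4, 25.5 and 18.3 CPM in axillary bud, early seedling and seedling (-3.27 ± 0.29). The shoot columns were close to one another in these regions and far above both roots.

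Variation within the shoot was larger in the next region. On chromosome 4 from 19523232 to 19523732 the roots had 1.49 and 1.27 CPM, against 34.7 CPM in axillary bud, 19.6 CPM in early seedling and 13.8 CPM in seedling (-3.22 ± 0.36). Axillary bud was thus the highest column there. On chromosome 12 from 5669156 to 5669656 the order within the shoot was the opposite, with 0.526 and 0.938 CPM in the roots against 9.77, 11.9 and 19.2 CPM in axillary bud, early seedling and seedling (-3.04 ± 0.35). On chromosome 11 from 4179845 to 4180345 the roots themselves differed, at 0.721 CPM in seminal root and 2.94 CPM in crown root, against 21.3, 22.6 and 12.8 CPM in the shoot columns (-2.90 ± 0.39).

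The other 7 of the 12 leading shoot-high regions had differences from -3.15 to -3.01. They lie on chromosome 3 from 32084081 to 32084581 and from 32454039 to 32454539, chromosome 9 from 15884761 to 15885261, chromosome 2 from 25498734 to 25499234 and from 32882161 to 32882661, chromosome 12 from 1868989 to 1869489 and chromosome 8 from 2543540 to 2544040. Over the 12 regions root values ranged from 0.526 to 2.94 CPM and shoot values from 9.77 to 34.7 CPM, and the adjusted p of limma was between 0.00101 and 0.00198. No root column was at its lowest possible value in any of them.

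**Figure D3:**
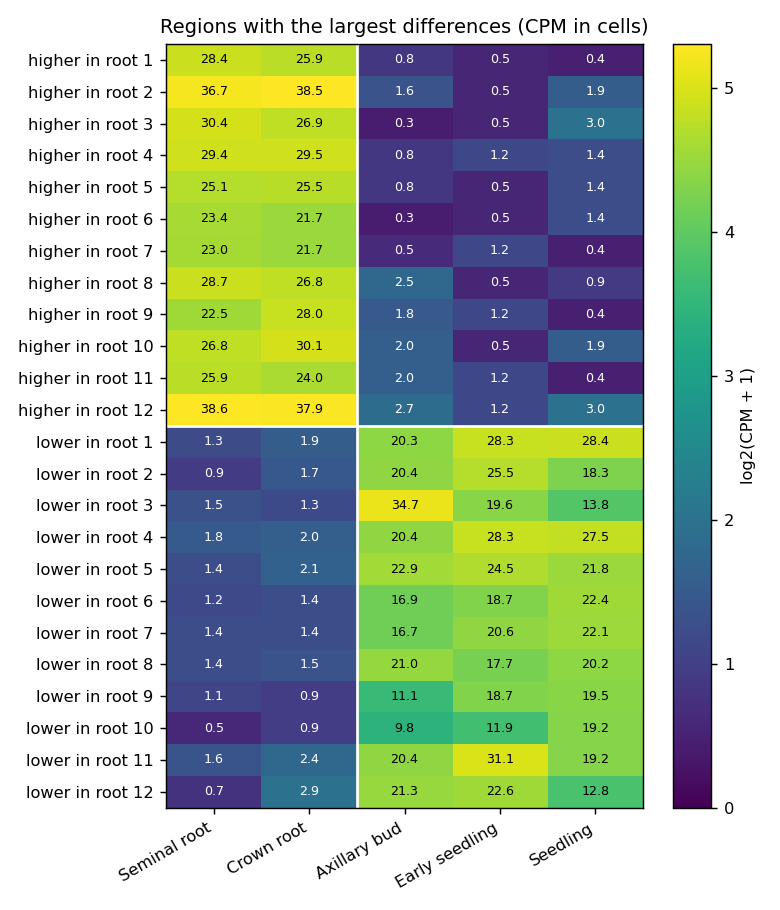
CPM (numbers) and log2(CPM + 1) (colour) of the 12 regions with the largest positive and the 12 with the largest negative root minus shoot difference, by procambial column, in the order of the differences. Root columns run from 21.7 to 38.6 CPM in the upper block and from 0.526 to 2.94 CPM in the lower one.

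Whether a difference belongs to procambium or to the organ was addressed by the other states of the same organs, 25 in the roots and 47 in the shoot organs. When the mean of the other states of each organ was compared in place of procambium, limma called 17876 regions (14.0%) higher and 15678 (12.3%) lower in root. Without crown root it called 5428 regions in all, and without seminal root 7123. The other states come from the same libraries as procambium but from other nuclei. In the 11128 regions higher in root procambium, the median root minus shoot difference was 1.49 in procambium and 0.83 in the other states. In the 7610 lower regions it was -1.23 in procambium and -0.74 in the other states. The regions were chosen on the procambial difference, which by itself makes that value the larger of the 2, so the gap between the medians is a description.

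The difference of differences was then tested: the root minus shoot difference of procambium, less that of the other states of the organs. At an adjusted p of limma below 0.05 it gave 0 of 127604 regions (0%), the smallest adjusted p being 0.118. At an unadjusted p under 0.05 there were 16711 regions, 8736 above 0 and 7975 below 0. With a pseudocount of 5 limma called 90 regions, 89 of them above 0. Whether single regions pass thus depends on the scale, and a p that misses the threshold does not show that procambium follows its organ.

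In the 12 leading root-high and the 12 leading shoot-high regions, the other states differed in the same direction as procambium, and limma called that difference in 12 and 12. Over all tested regions limma called 14.0% higher and 12.3% lower in the other root states. The leading regions were chosen as the most extreme in procambium of the same libraries, which favours such calls. The shoot-high region on chromosome 11 from 1951050 to 1951550 was shared by the organs at large, with a mean of 1.71 CPM over the other root states and 22.2 CPM over the other shoot states. It reached 5 CPM in 1 of 25 other root states and 47 of 47 other shoot states. The same held for the region on chromosome 6 from 27061551 to 27062051, open at 5 CPM in 0 of 25 and 47 of 47. Each of the 12 leading shoot-high regions was open in 0 to 6 of the other root states and 32 to 47 of the other shoot states.

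Among the root-high regions the picture was more mixed. Bases 38407137 to 38407637 of chromosome 1 were open in 25 of 25 other root states and 5 of 47 other shoot states. The leading region, on chromosome 4 from 26209936 to 26210436, was open in 25 of 25 and in 23 of 47, with its highest shoot value, 26.4 CPM, in Large_parenchyma of early seedling. On chromosome 6 the region from 4338914 to 4339414 was narrower, open in 11 of 25 other root states, most of all in Pericycle of seminal root (29.7 CPM), and in 0 of 47 other shoot states. The named regions on chromosome 4 that lie 3346 bases apart were open in 25 and 22 other root states and in 2 and 1 other shoot states.

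State by state, the called regions placed the other cell types of an organ along a gradient. In the root-high regions the median was 12.9 CPM in Endodermis of seminal root, the layer around the stele that controls what enters it, and 13.2 CPM in both Developing_protoxylem and Pericycle of crown root, close to procambium itself (12.7 and 12.4 CPM). Cortex was as close, at 12.5 CPM in seminal root and 12.3 CPM in crown root. Exodermis had 12.5 and 11.1 CPM. The median was lowest in Columella (6.04 CPM) and QC (6.40 CPM) of seminal root and in QC of crown root (7.27 CPM). Columella is the gravity-sensing part of the root cap, and QC is the quiescent centre, the slowly dividing core of the root meristem. In the shoot-high regions QC of seminal root (6.73 CPM), Stele_initials of crown root (6.20 CPM) and QC of crown root (6.02 CPM) had the highest medians among root states, above seminal and crown root procambium (3.67 and 3.84 CPM). The columns of QC had 200 and 109 distinct values in seminal and crown root, that of Stele_initials in crown root 118 and that of Columella in seminal root 74. The part of depth in these medians was not tested.

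Shoot states formed a gradient of their own. In the root-high regions Large_parenchyma had the highest median both in seedling (8.31 CPM) and in early seedling (6.83 CPM), followed in both organs by Vascular_sclerenchyma (8.12 and 6.46 CPM), the lignified support tissue around veins. Stomatal_precursor had the lowest in axillary bud (2.54 CPM), early seedling (2.67 CPM) and seedling (2.71 CPM), below procambium of the same organs (3.32, 2.88 and 3.03 CPM). In the shoot-high regions the order was nearly the reverse, with 4.05 CPM in Large_parenchyma and 11.5 CPM in Stomatal_precursor of seedling. Over all tested regions these columns had like medians, 4.60 CPM in Large_parenchyma and 4.52 CPM in Stomatal_precursor of seedling. Large_parenchyma of seedling had 531 distinct values and Stomatal_precursor 207, both above the 174 of seedling procambium.

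**Figure D4:**
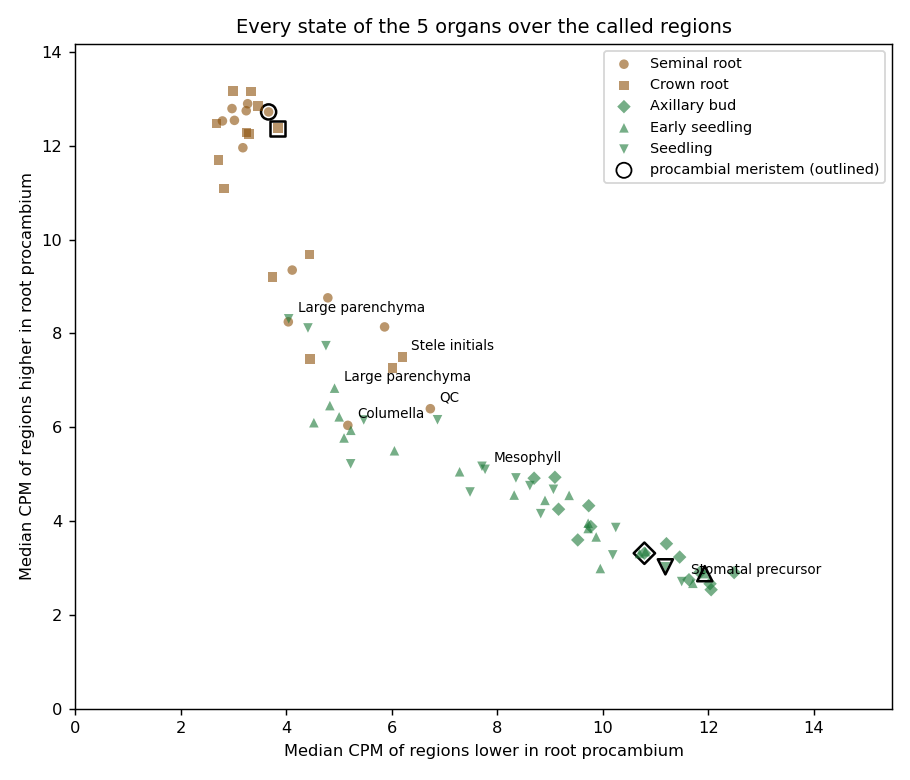
Every state of the 5 organs by its median CPM over the regions called lower (horizontal axis) and higher (vertical axis) in root procambium, with procambial columns outlined. Root procambium is at 12.4 to 12.7 CPM on the vertical axis and shoot procambium at 2.88 to 3.32 CPM, and Large_parenchyma, QC and Stele_initials lie between them.

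Although none passed the test, 5 regions per direction were named by the largest differences of differences. They were taken from regions where procambium less the mean of its organ's other states did not overlap between root and shoot. Bases 32824378 to 32824878 of chromosome 2 had 23.0 CPM in seminal root and 22.5 CPM in crown root procambium, against 2.05 CPM in axillary bud, 1.99 CPM in early seedling and 2.48 CPM in seedling. Its root minus shoot difference was 2.91 ± 0.28 in procambium and 0.17 in the other states, and the difference of differences was 2.74 ± 0.30 (limma adjusted p = 0.118). The authors' list names it for procambium, Pericycle and Developing_metaxylem of both roots, Stele_initials of seminal root and Radicle_meristem of both seed stages. It also reached 5 CPM in 9 of 47 other shoot states, the highest being Companion_cell of seedling with 15.2 CPM, a phloem cell type, so its high values were not limited to root states.

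A narrower case was the region on chromosome 4 from 33226651 to 33227151. It had 15.4 and 16.0 CPM in seminal and crown root procambium, against 0.348, 1.23 and 0.385 CPM in axillary bud, early seedling and seedling, and reached 5 CPM in 1 of 25 other root states and 0 of 47 other shoot states. The list names it for procambium of both roots and for Crown_root_UN1. Its difference of differences was 2.74 ± 0.33 (adjusted p = 0.118). On chromosome 10, bases 14579449 to 14579949 ran against its organs: the values were higher in root procambium (11.1 and 15.3 CPM, against 5.20, 3.86 and 1.94 CPM), while the other root states averaged 2.33 CPM and the other shoot states 7.57 CPM. Its difference of differences was 2.97 ± 0.34 (adjusted p = 0.118).

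The largest named difference of differences was 3.23 ± 0.72 (limma adjusted p = 0.184), on chromosome 3 from 1744745 to 1745245. Root procambium had 23.4 and 28.4 CPM there, against 11, 1.23 and 4.58 CPM in axillary bud, early seedling and seedling. Second was a region of chromosome 6, from 2892843 to 2893343, with 18.6 and 20.9 CPM in the roots against 1.10, 3.86 and 0.385 CPM, with near-equal means of 5.07 CPM in the other root states and 5.20 CPM in the other shoot states (3.07 ± 0.44, adjusted p = 0.133).

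On the other side stood regions in which root procambium was low for a root. On chromosome 11 from 17836111 to 17836611, root procambium had 2.50 and 2.62 CPM, against 0.348, 2.88 and 1.38 CPM in shoot procambium, while the other root states averaged 13.7 CPM and 21 of 25 reached 5 CPM (difference of differences -2.07 ± 0.43, limma adjusted p = 0.174). On chromosome 6 from 27337805 to 27338305 root procambium had 1.67 and 1.65 CPM, against 1.58, 2.88 and 1.38 CPM, and the list names 17 root states there, procambium not among them. In these regions the root minus shoot difference was 0.62 ± 0.43 and -0.11 ± 0.33 in procambium, against 2.69 and 1.85 in the other states. They were chosen for that contrast, and on chromosome 11 axillary bud procambium lay below both roots. The other 3 by the same rule, on chromosome 7 from 1553324 to 1553824 and on chromosome 12 from 24466780 to 24467280 and from 24615357 to 24615857, had procambial differences from -1.94 to -1.37, with differences of differences from -1.97 to -1.92 (adjusted p from 0.126 to 0.212).

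Columns that took no part in the comparison were then read in the called regions. The 16 states of panicle, the flowering shoot, followed the shoot pattern. The median of the organ mean was 2.60 CPM in the root-high regions and 11.3 CPM in the shoot-high regions, against 4.57 CPM over all tested regions. Each panicle state showed it, with state medians from 2.41 to 3.32 CPM in the root-high and from 9.61 to 12.4 CPM in the shoot-high regions. The 8 states of leaf, a shoot organ too, did not separate the sets: the medians of the organ mean were 4.63 and 4.24 CPM, against 4.43 CPM over all tested regions. Early seed had 4.38 and 5.77 CPM, against 4.53 CPM over all tested regions, and late seed 4.44 and 4.76 CPM, against 4.43 CPM.

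The embryo holds a root and a shoot meristem within 1 organ. In early seed, Radicle_meristem exceeded Shoot_meristem in 61.3% of the root-high regions and 46.5% of the shoot-high regions, against 50.5% of all tested regions. The median radicle minus shoot difference was 0.17, -0.04 and 0.01 in these sets. In late seed the shares were 56.6% and 51.0%, against 50.1%. Differences beyond 1 in favour of the radicle were found in 14.5% of the root-high regions in early seed, against 5.80% of all tested regions, and in 16.2% in late seed, against 9.34%. In the shoot-high regions, differences beyond 1 in favour of the embryonic shoot were near the background, at 8.02% against 6.18% in early seed and 8.79% against 9.09% in late seed. The columns had 547 and 982 distinct values for radicle and shoot meristem in early seed and 221 and 143 in late seed. With 1 column of each kind per stage these shares have no replicate.

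The root-high regions were also split by the unadjusted p of the difference of differences, as a description, since 0 regions passed after adjustment. Among 4252 root-high regions whose difference of differences was above 0 at an unadjusted p under 0.05, the radicle was higher in 66.8% in early seed and 59.7% in late seed. Among the 6804 root-high regions with a p not below 0.05 it was higher in 58.0% and 54.7%. The same split of the shoot-high regions gave 45.8% in early seed and 53.2% in late seed among those below 0 at an unadjusted p under 0.05, and 46.8% and 50.4% among those with a p not below 0.05. Called regions whose difference of differences went the other way at an unadjusted p under 0.05 are in neither part. Whether these shares differ was not tested. Of the 5 named regions with the largest positive difference of differences, 5 were higher in the radicle in early seed and 5 in late seed. The gap was wide for bases 1744745 to 1745245 of chromosome 3, with 11.6 CPM in Radicle_meristem and 2.91 CPM in Shoot_meristem of early seed, and 7.71 and 1.12 CPM in late seed. It was slight at low levels on chromosome 10 from 14579449 to 14579949, at 2.14 and 1.86 CPM in early seed and 1.30 and 1.12 CPM in late seed. On chromosome 4 from 33226651 to 33227151 the late seed values were 0.739 and 0.713 CPM. Of the 12 leading root-high regions by the procambial difference alone, 5 were higher in the radicle in early seed and 8 in late seed.

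At a limit of 5 CPM much of the procambial landscape was common to root and shoot. Each column had between 44.7% and 48.4% of the tested regions open, a share that the authors' normalization nearly fixes. Of the 127604 regions, 39795 (31.2%) were open in all 5 columns and 44768 (35.1%) in none. A further 6552 (5.13%) were open in both roots and no shoot column, and 4647 (3.64%) in the 3 shoot columns and neither root. Regions open in 1 root and closed in the other were few, such as 1365 open in seminal root alone and 1124 in crown root alone, whereas 2294, 3208 and 3078 were open in axillary bud, early seedling and seedling alone.

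The authors' list of specific regions was read for procambial names. It holds 120048 regions, and it names seminal root procambium for 4636, crown root procambium for 1434, axillary bud for 585, early seedling for 401 and seedling for 391. Of all 120048 listed regions, 4724 were named for either root and 1232 for any shoot procambium. Both kinds of name were given to 479 regions, which is 10.1% of the root list and 38.9% of the shoot list. Of the listed regions, 77399 are marked broadly accessible and carry no state name. These shares are therefore to be read beside the part that each kind makes up of the other regions, of which the table holds 42618. For all 5 columns together the list names 5 regions. The list was made from the nuclei that also gave the table, by a rule that is not stated. Of 1343 tested regions named for both roots, 775 (57.7%) were called higher and 0 lower in root, beside 8.72% and 5.96% of all tested regions. Of the 127 named for 2 or more shoot procambia, 1 was called higher and 39 (30.7%) lower.

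Among the regions that the list gives to procambium of both root and shoot, the 5 with the smallest mean differences were named, and levels were similar across the 5 columns in only some of them. Bases 6638581 to 6639081 of chromosome 5 had 6.30 CPM in seminal root and 5.69 CPM in crown root, against 7.98 CPM in axillary bud, 5.95 CPM in early seedling and 4.58 CPM in seedling. The other root states averaged 2.29 CPM and the other shoot states 3.21 CPM, and the list also gives it to Xylem_precursor of axillary bud and early seedling, Developing_xylem of seedling, Developing_metaxylem and Stele_initials of seminal root, and Cross_cell and Nucellar_epidermis of early seed. On chromosome 3, bases 35265899 to 35266399 had 6.41 and 7.08 CPM in the roots against 7.69, 6.96 and 5.50 CPM in the shoot columns. The list names 16 states for it: besides procambium, Cortex, Cortex_meristem and Pericycle of both roots, Atrichoblast of seminal root, Developing_phloem of early seedling and seedling, and Companion_cell, Phloem_parenchyma and Vascular_cell of axillary bud. In both regions procambium exceeded the mean of the other states in each of the 5 organs.

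The other 3 of these 5 shared regions were less even. On chromosome 2 from 29570707 to 29571207 the values were 7.08 and 7.69 CPM in the roots against 7.84, 3.86 and 12.5 CPM in axillary bud, early seedling and seedling. On chromosome 10 from 19198317 to 19198817 they were 3.57 and 3.33 CPM against 8.76, 1.99 and 1.94 CPM, and on chromosome 11 from 23134610 to 23135110 they were 3.98 and 6.84 CPM against 2.05, 6.96 and 9.45 CPM. Their mean differences were near 0 while single shoot columns lay on both sides of the roots, and limma adjusted p of the 5 regions ran from 0.979 to 0.993.

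Called regions were spread over all 12 chromosomes. The share higher in root ran from 7.38% on chromosome 9 to 9.70% on chromosome 4, and the share lower in root from 5.30% on chromosome 10 to 7.16% on chromosome 9, around the 8.72% and 5.96% of all tested regions. Along a chromosome, calls of 1 direction lay next to each other. Where neighbouring regions had under 500 bases between them, the region after a root-high one was root-high in 32.9% of cases, against 10.7% of all such next regions. The region after a shoot-high one was shoot-high in 32.8%, against 6.91%. With 5000 to 20000 bases between them these shares were 12% against 4.67% and 10.1% against 4.58%. The opposite call followed a root-high region in 0.887% and a shoot-high region in 1.65% of the closest neighbours. Regions do not overlap, though a fragment can reach into both of a close pair.

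Some calls formed long runs, counted as called regions of 1 direction with at most 5000 bases between the starts of neighbours. There were 571 root-high runs of 3 or more regions, holding 2032 regions, and 365 shoot-high runs with 1346 regions. The longest root-high run held 10 regions on chromosome 1 from 1794975 to 1807035, with differences from 0.70 to 3.28. It was followed by 8 regions on chromosome 2 from 24967036 to 24973641 (1.41 to 2.86) and 8 on chromosome 4 from 35009798 to 35016318 (1.18 to 2.34). Shoot-high runs of 9 regions lay on chromosome 1 from 574351 to 583413 (-2.52 to -0.66), chromosome 4 from 30321530 to 30330157 (-2.77 to -0.65) and chromosome 6 from 1596710 to 1605540 (-2.61 to -0.54).

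**Figure D5:**
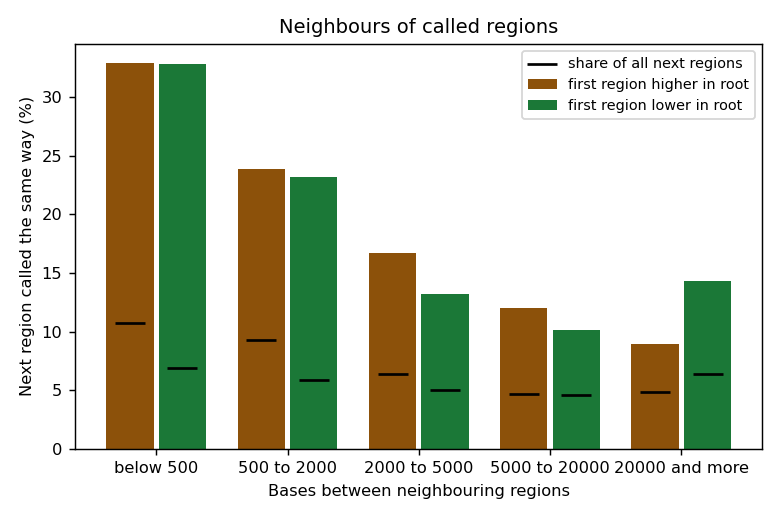
Share of regions called the same way as the region before them on the chromosome (vertical axis, percent) by the number of bases between the 2 regions. Black marks give the share among all next regions at that distance. The bars fall from 32.9% and 32.8% below 500 bases to 12% and 10.1% at 5000 to 20000 bases, above the marks; the last bin rests on 67 root-high and 112 shoot-high first regions.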

How the data were processed

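The authors deposited log2 values of CPM for 128764 regions of 501 bases and 128 cell states, pooled over libraries and brought to nearly 1 distribution per column. Per the submitters' processing notes, BWA and MACS2 were used. The labels' protocols give 16000 sorted nuclei per library. No source used here gives the build, the region caller's settings, the clustering or the treatment of doublets. The number of columns without an organ was 0.

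CPM was recovered as 2 to the power of the deposited log2 value, and analysed as log2(CPM + 1), which understates changes of low regions. A region was tested if any of the 5 columns reached 1 CPM, which left out 1160. Root minus shoot was fitted with limma 3.58.1 in R 4.3.3 (intensity trend, two-sided, Benjamini-Hochberg adjustment at 0.05). The same fit was made on the mean of all other states of each organ and on the difference. The script was tested on simulated data. Named were the 12 regions per direction with the largest called, non-overlapping difference. Also named were the 5 per direction with the largest non-overlapping difference of differences, where none was called. The last were the 5 least different regions listed for root and shoot procambium. Whether same-organ libraries came from separate plants is not stated. Planned counts near gene families and of sequence motifs were not run, since no genome of the files' build was used here. The columns, lists and tests were chosen with earlier results of these data known. The tests had been planned for CPM, and the table held its log2.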

Additional observations from a re-analysis of the deposited data

How the results depend on the processing

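All 24 regions named for the procambial difference kept their direction and an adjusted p under 0.05 in limma under each of 14 alternatives (0.000494 to 0.0133). The 10 named for the difference of differences kept their direction under 15, and 4 of them passed 0.05 with a pseudocount of 5. Counts moved more. For procambium, 18738 regions were called in the analysis as reported, 2400 to 25262 with 1 organ left out, 29269 with early seedling and seedling averaged and 5745 with organs of 1 tissue label averaged. The difference of differences gave 90 calls with a pseudocount of 5 and 0 elsewhere, leave-one-out included. For the other states the 33554 calls became 5428 to 49061 with 1 organ left out and 0 with organs of 1 tissue label averaged, where 24802 had an unadjusted p under 0.05. The cause of these changes was not tested. The 20105 non-overlapping regions beyond 1 became 31521 with a pseudocount of 0.1, 6003 with 5, 32905 on the deposited log2 values and 2570 with a limit of 2. With 1 organ left out they numbered 20102 to 23085. The mean correlation was 0.771 for root and shoot pairs, 0.412 in regions listed as specific. For shoot pairs it was 0.867, against 0.540 in those regions and 0.827 on deposited values. For the root pair, at 0.977, it was 0.912, 0.965 and, by Spearman, 0.974. No paired analysis was possible because the columns pool the replicate numbers of an organ. The alternative distance planned for gene groups was not run. The main limits are 5 organs, pooled columns of unequal depth, and organ and library that cannot be told apart.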

Other observations

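Many regions that separate root from shoot procambium are marked as broadly accessible in the authors' list. This held for 8850 of the 11128 root-high regions (79.5%) and 5981 of the 7610 shoot-high regions (78.6%), against 60.6% of all tested regions. It also held for 9 of the 12 leading root-high and 12 of the 12 leading shoot-high regions. Among the 203 regions with at least 10 CPM in both roots and under 2 CPM in each shoot procambium column, 152 (74.9%) carried the mark. Among the 27 with the opposite pattern, 24 (88.9%) did. The share of all tested regions was not matched for level, and calls were fewest among the least open regions. The part of level in these shares was not tested.

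Some of these regions followed the organ in every state. Of the tested regions, 3 reached 5 CPM in all 27 root states and in no shoot state of the 5 organs, and 9 reached it in all 50 shoot states and in no root state. All 12 are marked as broadly accessible. An organ-wide region can thus carry the mark while it is closed throughout another organ, and the mark does not show that a region is open in both root and shoot.

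The region on chromosome 12 from 24466780 to 24467280 is listed for PBM of panicle and no other state. It had 2.24 CPM in seminal root and 1.19 CPM in crown root procambium, against 9.77 CPM in axillary bud, 4.91 CPM in early seedling and 4.08 CPM in seedling. In the embryo it was the root meristem that was high, at 6.31 CPM in Radicle_meristem against 0.498 CPM in Shoot_meristem of early seed and 6.04 against 0.432 CPM in late seed. Root procambium and the radicle meristem thus differed in this region.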
